A study of Rattus norvegicus with 16 samples.

Results

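The genes described here are the translation initiation factors (eIF) and elongation factors (eEF) of the rat, chosen by name: every gene whose symbol on the array begins with Eif1 to Eif6, or with Eef1 or Eef2. The rule found 61 genes among the 26115 gene names of the array, read by 79 of its 30367 probes. It used no measured value, but it was set with earlier results of these data known. For the 16 genes with more than 1 probe, the probe with the highest mean tissue signal stood for the gene. Of the 61 genes, 60 passed the filter on dim signals and were tested. The remaining one, Eif4e1b, a germline relative of the cap-binding factor Eif4e, was well above background on 1 of 16 arrays and has no fold here.

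Translation of an mRNA begins when eIF4F binds the cap and unwinds the leader, while eIF3, eIF1, eIF1A and the eIF2 complex carrying the initiator tRNA prepare the small ribosomal subunit. eIF2B recharges eIF2 with GTP, and 4 kinases that sense haem shortage, viral RNA, unfolded protein or amino acid shortage (Eif2ak1 to Eif2ak4) phosphorylate eIF2α and slow initiation. Elongation uses eEF1 to deliver aminoacyl-tRNA and eEF2 to move the ribosome, and eEF2 kinase switches eEF2 off. In the stomach and intestine these factors serve tissues that secrete much protein and renew their epithelium quickly.

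The arrays held RNA of suckling Wistar rats (Wistar Han in the study's methods), whose sex the labels do not give, given by gavage either saline (group C, NC in the labels) or the ghrelin-gene peptide obestatin at 250 nmol/kg (group OH, NOH in the labels), 2 times daily between days 14 and 21 of life. Stomach and the middle part of the intestine were each measured on 4 arrays per treatment, which makes 4 groups of 4. Each array held tissue RNA of 1 rat, labelled with Cy5 and hybridized together with a Cy3-labelled pool of RNA of all rats, without dye swap, so each value is a log2 ratio of tissue to pool. These are bulk tissues, in which fewer cells of a type and less RNA per cell cannot be told apart.

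A slide held the arrays of 1 group, and the slides of C and those of OH were scanned on different days. Treatment therefore cannot be told apart from slide or day of scanning. The median raw Cy3 signal was 188 to 195 on the 8 C arrays and 341 to 399 on the 8 OH arrays, while that of Cy5 was 178 to 293 and 163 to 328. Markers of the tissues followed the labels: the mean log2 ratio of 12 stomach mucosa genes was 1.83 to 2.99 on the stomach arrays and -4.39 to -3.72 on the intestine arrays, and that of 14 enterocyte genes was -3.15 to -2.97 and -0.45 to 1.45. The mean of 15 striated muscle genes was 3.47, 3.07 and 3.78 on C stomach arrays 1, 3 and 4, -0.94 on C stomach array 2 and at most 0.63 on the other 12. That of 10 pancreas genes was -1.70 on OH middle intestine array 4 and -3.53 to -3.07 on the other 7 intestine arrays, and -0.78 to 0.35 in stomach. Stomach was also lower in 4 leukocyte genes (-2.32 to -1.23 against 0.40 to 1.33) and 6 proliferation genes (-1.10 to -0.62 against -0.16 to 0.26), and in C in 8 smooth muscle genes (-2.57 to -1.38 against -1.31 to -0.29). In OH the smooth muscle means overlapped (-2.59 to 0.96 against -0.92 to -0.17). The mean of 8 forestomach genes was 0.22 to 1.83 in C stomach, 0.01 to 1.07 in OH stomach and -2.96 to -2.55 in the intestine. The factors described below differed between the tissues in both directions, and the part of these lists in those differences was not tested.

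What each value measured is a 60-base probe. The first 30 bases are shown for the probes of 2 eIF2α kinases, eEF2 kinase and 2 eEF1 genes, whose tissue differences are described below, and for the Eif1 and Eif1l1 probes, which the array design places close together:
Eif2ak4: agatacctcaaactcgtctgcgacgaaatc
Eif2ak1: taaattttcaacccttagctgaggacgggt
Eef2k: agtgcaaaggttaaatgctctggaccttgg
Eef1e1: tccagtaaagaagacacccagactctgctg
Eef1b2: acagtccatggatgtggctgcttttaacaa
Eif1: atatcattagagttgagtctctctggctgt
Eif1l1: ccgcttttaacttgggctagtgttaactcc
On the rn4 build of the design these probes lay at chr3:104905172-104906054 (Eif2ak4), chr12:11039244-11039303 (Eif2ak1), chr1:179745924-179745983 (Eef2k), chr17:32220067-32221025 (Eef1e1), chr9:61834870-61834929 (Eef1b2), chr10:89257554-89257613 (Eif1) and chr10:89257262-89257321 (Eif1l1). The mapped spans of Eif2ak4 and Eef1e1 are longer than the probes, as for a probe across an exon junction. The Eif1l1 and Eif1 probes were 232 bases apart on the same strand of chromosome 10, whereas RefSeq places the gene now called Eif1l1 on chromosome 3, so the Eif1l1 value is uncertain as a measure of its own gene. The same holds for Eif3i, whose probe the design places on chromosome 2 and RefSeq on chromosome 5. For 57 members both sources gave the same chromosome, and for Eif4a3 and Eif6 the design gave no position. The longest run of bases shared by 2 probes was 6 for Eef1a1 and Eef1a2 and 8 for Eif1 and Eif1b. It was 5 for Eif1a and Eif1ax and 5 for Eif4a1 and Eif4a2, against a median of 6 over all 1830 pairs of members. Probes were compared with each other and not with the mRNA of the paralog. Whether a probe also binds a paralog's mRNA was therefore not tested.

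Many elongation factor mRNAs are known as TOP mRNAs, whose leader opens with a C and a run of pyrimidines that lets mTOR signalling control their translation. In RefSeq's GRCr8 start sites, the 10 bases before and 20 after the start are shown for 3 genes that are background examples of this class, with a run of a C followed by at least 4 C or T near the start in capitals:
Eef1a1: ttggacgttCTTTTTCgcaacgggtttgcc
Eef1b2: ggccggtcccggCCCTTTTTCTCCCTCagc
Eef2: ccgcagccgccgccatcgtcggcgcgcttc
These windows lie at chr8:88225050-88225079 on the minus strand (Eef1a1), chr9:72074081-72074110 on the plus strand (Eef1b2) and chr7:9189219-9189248 on the minus strand (Eef2). Searched on the transcribed strand from 5 bases before to 10 after the annotated start, the run was found in 14 of the 54 members that the promoter table holds (25.9%), beside 19.0% of the 27457 genes of the table. Its absence at the start of Eef2 says only that these letters are not in this window.

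**Figure D1:**
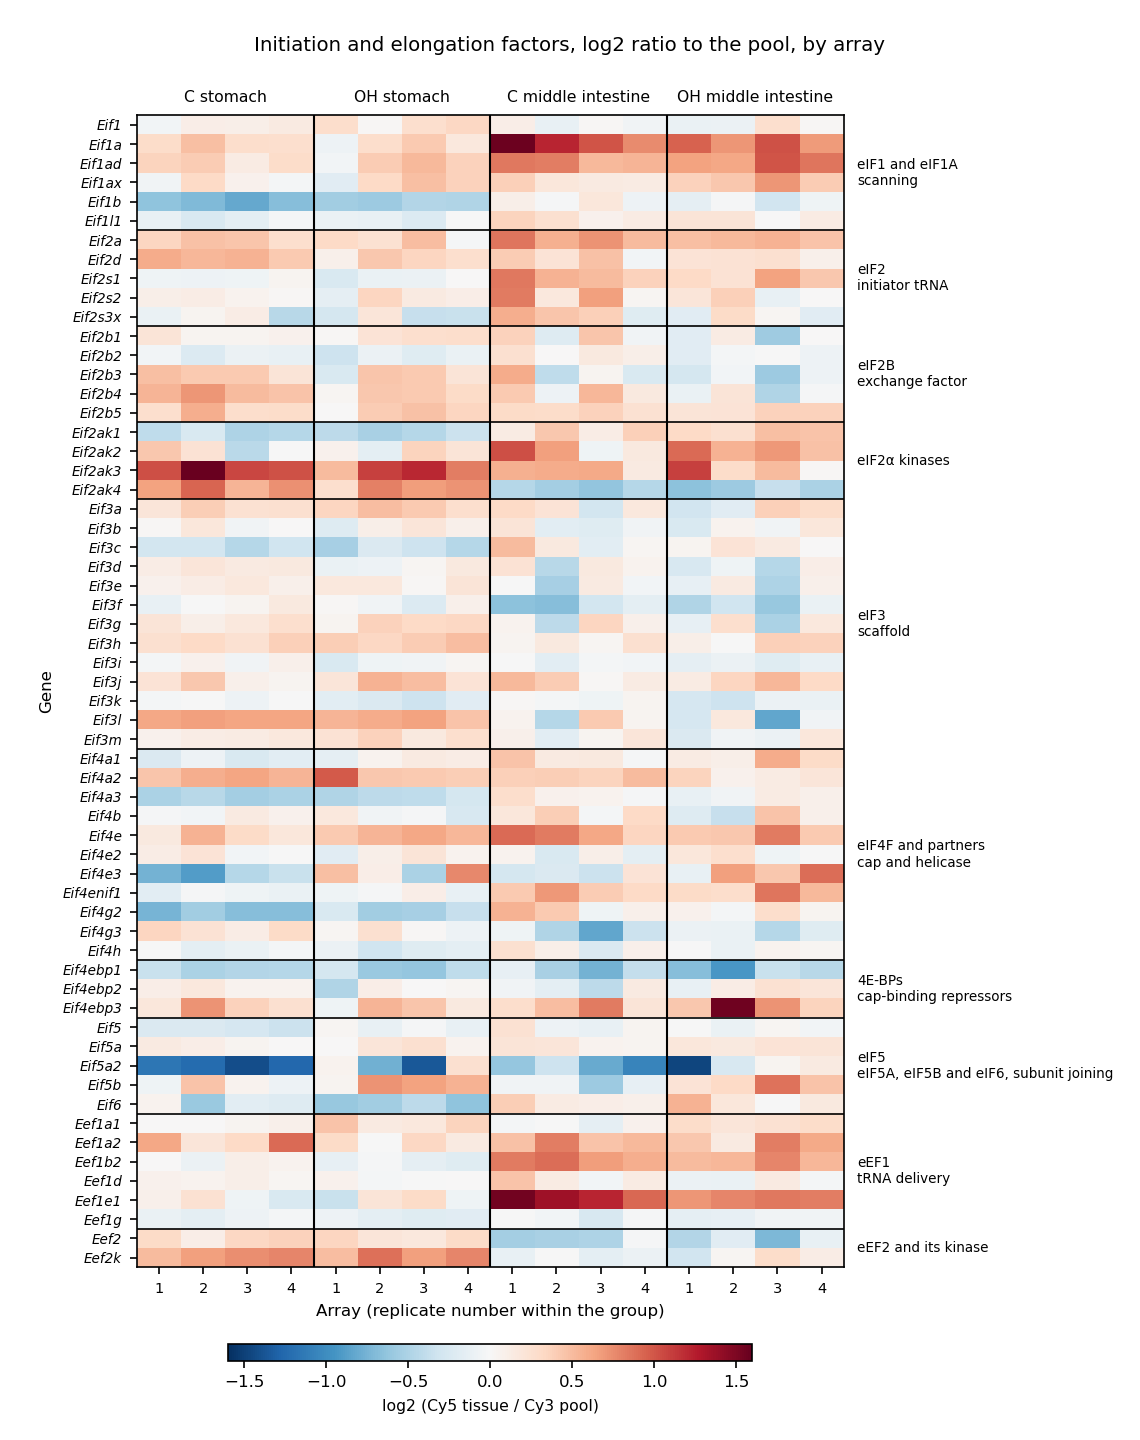
Log2 ratio of tissue (Cy5) to pool (Cy3) of the 60 tested factors on each of the 16 arrays, grouped by role; colour runs from blue (below the pool) to red (above it) and columns are arrays 1 to 4 of each group. The stomach and intestine blocks differ for single genes such as Eif2ak4 (0.27 to 0.93 against -0.66 to -0.36), and 0 of the 60 factors passed between C and OH of the same tissue.

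The first comparison asked which factors differed between stomach and middle intestine in C rats. There 24 of the 60 factors differed at an adjusted p under 0.05, 7 of them higher and 17 lower in stomach (limma, Benjamini-Hochberg over all probes). That is 40% of the factors, beside 44.9% of all 21174 probes, of which 22.7% were higher and 22.3% lower. At an unadjusted p under 0.05 there were 26 factors in C (52.3% of all probes) and 25 in OH (46.7%). The median log2 difference was -0.05 over the factors and -0.01 over all probes. In OH rats 18 factors differed (30%, beside 38.2% of all probes), 6 higher and 12 lower in stomach, where 19.2% and 19.1% of all probes were. This split moved with the scaling: it was 4 higher and 14 lower with ratios centred on each array's median, 10 and 13 for the Cy5 channel alone scaled to its 75th percentile, and 12 and 5 for Cy5 not scaled, where the median of all probes was 0.12. In both treatments alike 16 factors differed in the same direction (26.7%, beside 31.1% of all probes): 4 were higher in stomach and 12 lower, beside 15.5% and 15.6% of all probes. The group means compared in C and in OH share no array, but they share the Cy3 pool. The spread of each probe was estimated over all 16 arrays, so OH arrays also entered the p values in C, and C arrays those in OH. The calls in C and OH are therefore not fully separate. The 4 stomach arrays and the 4 intestine arrays did not overlap for 26 factors in C (43.3%, beside 43.7% of all probes). In OH they did not overlap for 19 (31.7%, beside 35.2%). In both treatments, in the same direction, this was so for 17 factors, among them all of these 16. The 16 were picked by p on the same arrays, so their lack of overlap adds no separate evidence.

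**Figure D2:**
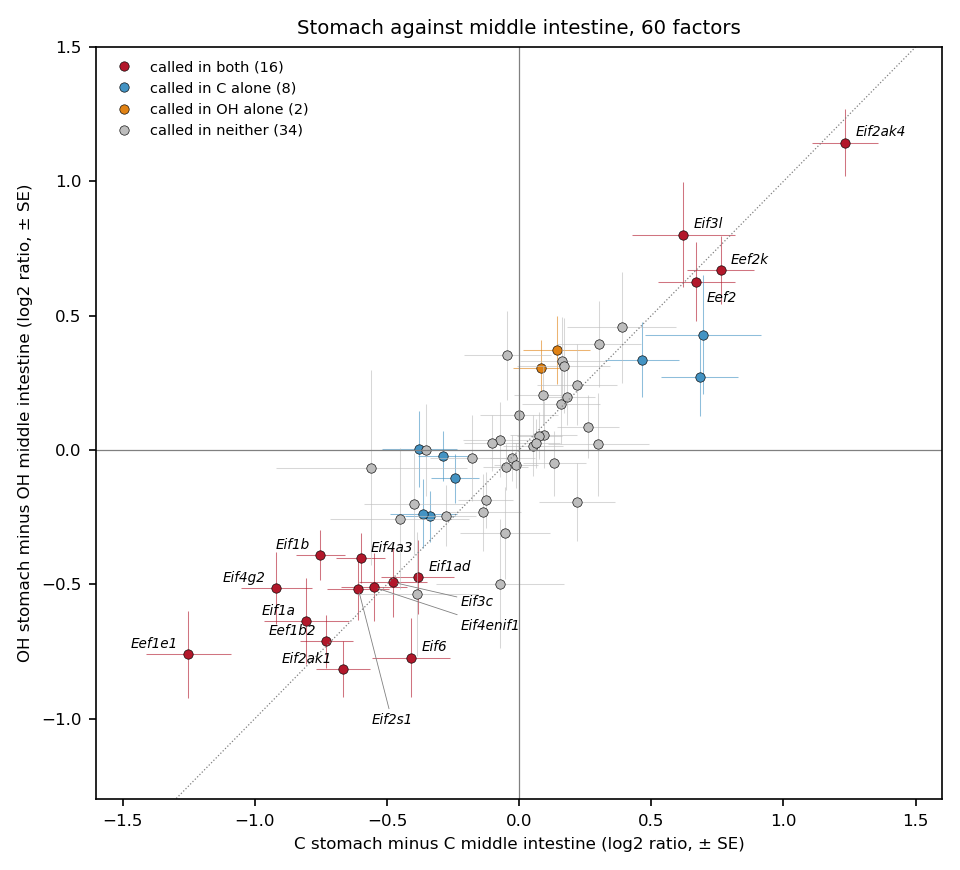
Difference of the log2 ratio between stomach and middle intestine in C rats (x axis) and OH rats (y axis) for the 60 factors, with standard errors; the dotted line marks equal differences. The 16 factors called in both treatments are named: Eif2ak4 (1.23 and 1.14) stands at the upper right and Eef1e1 (-1.25 and -0.76) at the lower left.

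The eIF2α kinases went in different directions. Eif2ak4 (GCN2, which senses uncharged tRNA) had ratios of 0.64, 0.93, 0.54 and 0.73 in C stomach and 0.27, 0.80, 0.67 and 0.72 in OH stomach. In the intestine they were -0.45, -0.55, -0.63 and -0.46 in C and -0.66, -0.58, -0.36 and -0.51 in OH. All stomach arrays lay above the pool and all intestine arrays below it. The gene was 2.35-fold higher in stomach of C rats (log2 1.23, SE 0.126, adjusted p = 2.2e-06) and 2.21-fold higher in OH rats (log2 1.14, SE 0.126, adjusted p = 5.37e-06), the largest differences upward among the factors in limma.

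Eif2ak1 (HRI, the haem-regulated kinase) went the other way. Its ratios were -0.41, -0.24, -0.50 and -0.46 in C stomach and -0.42, -0.52, -0.46 and -0.34 in OH stomach. In the intestine they were 0.13, 0.44, 0.12 and 0.38 in C and 0.32, 0.25, 0.49 and 0.46 in OH. Stomach lay below the pool and intestine above it, by 1.59-fold in C (log2 -0.67, SE 0.104, adjusted p = 0.000128) and 1.76-fold in OH (log2 -0.82, SE 0.104, adjusted p = 2.2e-05).

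Eif2ak3 (PERK, the kinase of the endoplasmic reticulum stress response) was 1.03, 1.58, 1.07 and 1.02 in C stomach and 0.57, 0.59, 0.60 and 0.15 in C middle intestine. It was higher in stomach in C (log2 0.70, SE 0.221, adjusted p = 0.0192), a call lost without C stomach array 2 (adjusted p = 0.0621) or C middle intestine array 4 (adjusted p = 0.0588). In OH rats it ran between 0.50 and 1.20 in stomach and was 1.09, 0.30, 0.50 and 0.02 in the intestine, where the arrays overlapped (log2 0.43, SE 0.221, adjusted p = 0.143). Eif2ak2 (PKR, activated by double-stranded RNA) passed in neither: log2 -0.39 in C (SE 0.230, adjusted p = 0.184) and -0.54 in OH (SE 0.230, adjusted p = 0.0796), with C intestine arrays from -0.06 to 1.03.

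The substrate of these kinases, Eif2s1 (eIF2α), was lower in stomach. It lay between -0.08 and 0.05 on the C stomach arrays and between 0.36 and 0.85 on the C intestine arrays, and between -0.24 and 0.01 and between 0.23 and 0.65 in OH. The differences were -0.61 in C (SE 0.118, adjusted p = 0.000779) and -0.52 in OH (SE 0.118, adjusted p = 0.00301). The β and γ subunits Eif2s2 and Eif2s3x did not pass in limma, with log2 differences of -0.35 and -0.40 in C (adjusted p = 0.108 and 0.103) and 0.00 and -0.20 in OH. Of the 5 subunits of the exchange factor eIF2B, only Eif2b2 passed, in C alone (log2 -0.24, SE 0.0918, adjusted p = 0.043), where 44.9% of all probes did. That call was lost with the replicate number as a block (adjusted p = 0.0706) and in 11 of the 16 fits that left out 1 array.

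**Figure D3:**
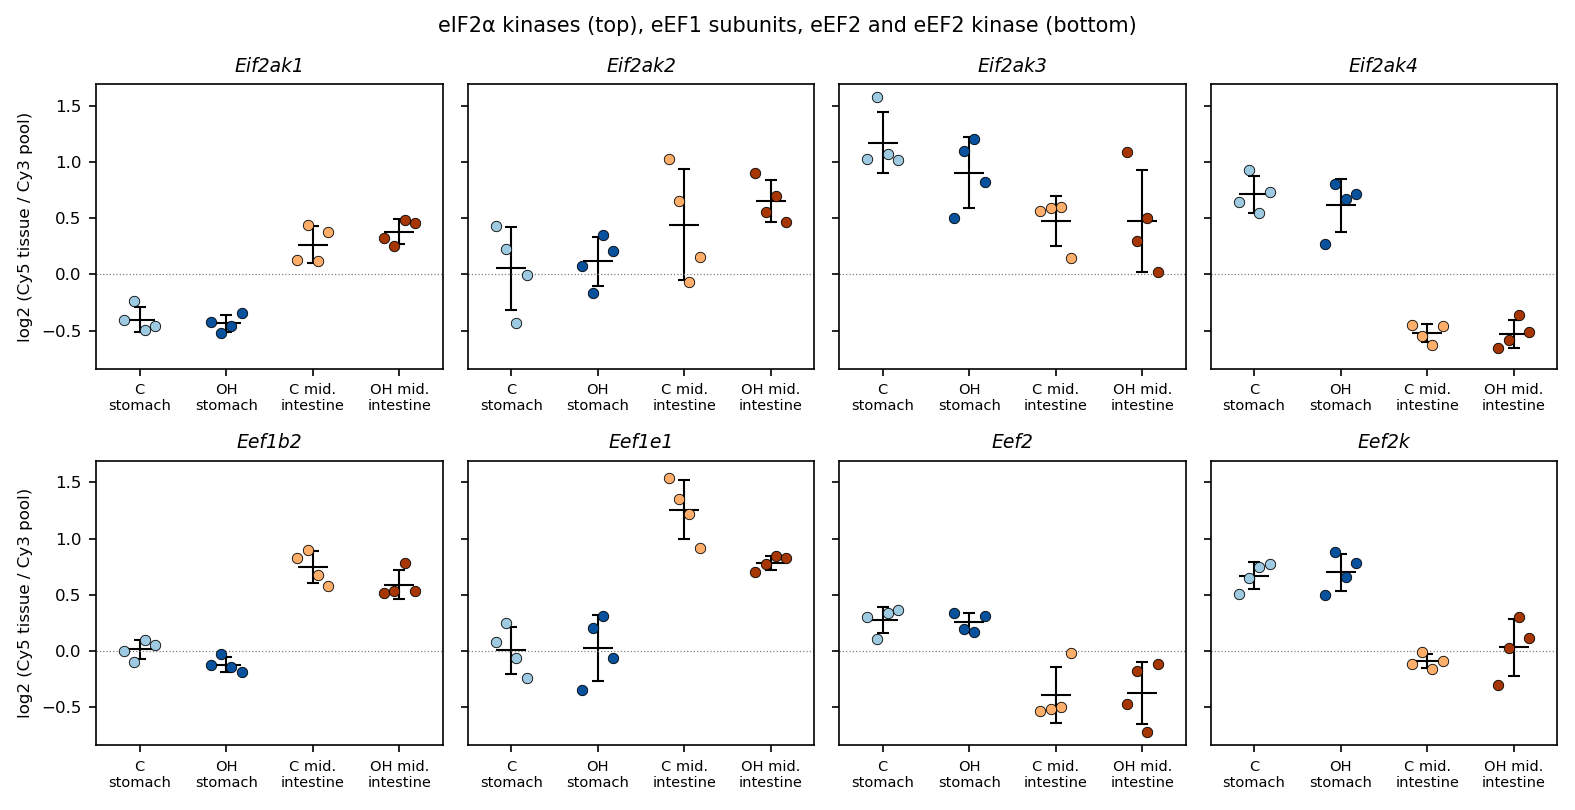
Log2 ratio of tissue to pool on each array for the 4 eIF2α kinases (top) and for Eef1b2, Eef1e1, Eef2 and Eef2k (bottom); points are arrays, the bar and whiskers are the mean and SD of 4 arrays. Eif2ak4, Eef2 and Eef2k sit higher in stomach, Eif2ak1, Eef1b2 and Eef1e1 lower, while the tissues overlap for Eif2ak2 in C and for Eif2ak3 in OH.

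Among the elongation factors, eEF2 and its kinase were both higher in stomach. Eef2, the translocase, had ratios of 0.31, 0.11, 0.34 and 0.36 in C stomach and 0.34, 0.20, 0.17 and 0.31 in OH stomach. In the intestine they were -0.54, -0.51, -0.50 and -0.02 in C and -0.47, -0.18, -0.72 and -0.12 in OH. The groups did not overlap, and C intestine array 4 lay nearest to the stomach. Stomach was 1.59-fold higher in C (log2 0.67, SE 0.146, adjusted p = 0.00195) and 1.54-fold higher in OH (log2 0.63, SE 0.146, adjusted p = 0.00352).

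Eef2k, the calcium- and calmodulin-dependent kinase that inactivates eEF2, was 0.51, 0.65, 0.74 and 0.78 in C stomach and 0.50, 0.88, 0.65 and 0.78 in OH stomach. In the intestine it was -0.11, -0.01, -0.16 and -0.09 in C and -0.31, 0.03, 0.30 and 0.12 in OH. All 8 stomach arrays lay above all 8 intestine arrays, by 0.76 in C (SE 0.127, adjusted p = 0.000232) and 0.67 in OH (SE 0.127, adjusted p = 0.000788). A dimmer second probe of the gene gave 1.66 (SE 0.204) and 1.34 (SE 0.204), the same direction at a larger size.

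Of the eEF1 genes, 2 of 6 were lower in stomach in both treatments and none higher, beside 15.6% and 15.5% of all probes. Eef1b2 (eEF1Bα, an exchange factor for eEF1A) was 0.00, -0.10, 0.10 and 0.06 in C stomach against 0.83, 0.90, 0.67 and 0.58 in C middle intestine. In OH it was -0.13, -0.02, -0.15 and -0.19 against 0.51, 0.54, 0.79 and 0.53. The stomach arrays lay near the pool and the intestine arrays above it, by 1.66-fold in C (log2 -0.73, SE 0.0992, adjusted p = 3.82e-05) and 1.64-fold in OH (log2 -0.71, SE 0.0992, adjusted p = 5.23e-05).

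Eef1e1 (AIMP3, which belongs to the multi-aminoacyl-tRNA synthetase complex) had the largest tissue difference in C of the 60 factors by size, ahead of Eif2ak4 by less than its SE. Its ratios were 0.08, 0.25, -0.07 and -0.24 in C stomach and 1.54, 1.36, 1.22 and 0.91 in C middle intestine, and -0.35, 0.20, 0.31 and -0.06 and 0.70, 0.78, 0.84 and 0.82 in OH. The difference was -1.25 in C (SE 0.161, adjusted p = 2.26e-05) and -0.76 in OH (SE 0.161, adjusted p = 0.00181). The Cy3 pool itself differed between these slides at this probe: alone it changed by 0.46 between C stomach and C intestine, and Cy5 alone by -0.79 (adjusted p = 0.000898).

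Neither isoform of eEF1A, the carrier of aminoacyl-tRNA, differed between tissues in limma. Eef1a1, the general isoform, differed by 0.06 in C (SE 0.0908) and 0.02 in OH (SE 0.0908). Eef1a2, the isoform of muscle and neurons, was 0.62, 0.19, 0.32 and 0.90 in C stomach and 0.47, 0.82, 0.46 and 0.51 in C middle intestine. The 0.19 was on the C stomach array without the striated muscle signal, and the 0.32 on an array with it. The part of muscle in these values was not tested. Eef1a2 differed by -0.05 in C (SE 0.171) and by -0.31 in OH (SE 0.171, adjusted p = 0.173). Eef1d and Eef1g, the other subunits of the exchange complex, differed by at most 0.11 on either of their probes in either treatment. Of the 9 factors listed as TOP mRNAs, 3 passed in C, with Eef2 and Eif3f higher in stomach and Eef1b2 lower, and 2 in OH, Eef2 higher and Eef1b2 lower. These are 33.3% and 22.2% of the list, below the 44.9% and 38.2% of all probes. Of the 3 whose start sites are shown above, Eef1a1 passed in neither treatment.

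In the eIF4F group, 6 of 11 factors differed in C (1 higher, 5 lower in stomach), beside 44.9% of all probes. In OH 4 of 11 did (1 higher, 3 lower), beside 38.2% of all probes. Eif4g2 (DAP5, a scaffold for cap-independent initiation) was -0.75, -0.56, -0.69 and -0.69 in C stomach and 0.56, 0.42, -0.07 and 0.08 in C middle intestine. It was -0.24, -0.56, -0.53 and -0.37 in OH stomach and 0.07, -0.03, 0.29 and 0.04 in OH middle intestine. The difference was -0.92 in C (SE 0.135, adjusted p = 7.96e-05) and -0.51 in OH (SE 0.135, adjusted p = 0.00769). Its other kept probes gave -0.72 and -0.40 in C and -0.28, which did not pass, and -0.56 in OH. Eif4a3, the helicase of the exon junction complex, was lower in stomach (log2 -0.60 and -0.40), as was Eif4enif1, the nuclear transporter of eIF4E (log2 -0.55 and -0.51). Eif4e3 did not pass by its chosen probe (log2 -0.45 in C and -0.26 in OH). By its second probe it passed in C (log2 -0.76, adjusted p = 0.0185 in limma) and not in OH (log2 -0.36).

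The cytoplasmic helicases of eIF4F gave calls in 1 treatment each. Eif4a1 was lower in stomach in C (log2 -0.36, SE 0.128, adjusted p = 0.0318), and Eif4a2 higher in OH (log2 0.37, SE 0.127, adjusted p = 0.031). Leaving out any 1 of C stomach arrays 1, 3 and 4 or of C intestine arrays 1 and 2 ended the first call (adjusted p 0.0522 to 0.104), as did the replicate block (adjusted p = 0.0504). The second fell to log2 0.23 and was lost without OH stomach array 1 (adjusted p = 0.0803), where Eif4a2 was 0.99 against 0.39 to 0.43 on the other 3, or without OH intestine array 2, 3 or 4. Cap-binding Eif4e differed in C (log2 -0.38, SE 0.142, adjusted p = 0.0421) and was level in OH (log2 0.00, SE 0.142), and 8 of the 16 fits without 1 array lost the call in C. The second probe of Eif4e gave -0.39 in C and -0.34 in OH (adjusted p = 0.0634), and that of Eif4a1 -0.65 and -0.16. Its repressors Eif4ebp1, Eif4ebp2 and Eif4ebp3 passed in neither treatment, with differences of 0.00, 0.22 and -0.07 in C and 0.13, -0.19 and -0.50 in OH.

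The genes grouped by name with eIF1 and eIF1A were lower in stomach where they differed. Eif1b was -0.64, -0.70, -0.82 and -0.68 in C stomach and 0.10, -0.02, 0.18 and -0.08 in C middle intestine, apart by log2 -0.75 (SE 0.0931, adjusted p = 1.56e-05). In OH the difference was -0.39 (SE 0.0931, adjusted p = 0.00397). In C the Cy3 pool alone changed by 0.30 between stomach and intestine at the Eif1b probe, and Cy5 alone by -0.45. Its paralog Eif1 differed by 0.09 and 0.20 without passing, while the Eif1l1 probe beside it passed in C (log2 -0.34, SE 0.0948, adjusted p = 0.00969). Eif1a was 0.30, 0.48, 0.28 and 0.27 in C stomach and 1.57, 1.22, 1.00 and 0.75 in C middle intestine (log2 -0.81, SE 0.160, adjusted p = 0.000966), and differed by -0.64 in OH (adjusted p = 0.00579). Eif1ax, its X-linked paralog, differed by -0.14 and -0.23 without passing, but its second probe passed in C (log2 -0.40, adjusted p = 0.0107). Eif1ad differed by -0.38 and -0.47 and passed in both, in C not with the replicate block (adjusted p = 0.0574).

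The 13 subunits of eIF3, the scaffold on the small ribosomal subunit, had a median difference of 0.16 in C and 0.20 in OH. In each treatment 3 passed, beside 44.9% of all probes in C and 38.2% in OH. This count depends on the probe chosen. In limma the second probe of Eif3j passed in C (log2 -0.46, adjusted p = 0.00286), where the chosen one gave -0.07. That of Eif3h passed in OH (log2 0.64, adjusted p = 0.0142), where the chosen one gave 0.20. Eif3l was higher in stomach: 0.62, 0.66, 0.63 and 0.64 in C stomach against 0.05, -0.46, 0.42 and 0.04 in C middle intestine. The stomach arrays lay close together and below them the intestine arrays were spread widely (log2 0.62, SE 0.195, adjusted p = 0.0179 in C and log2 0.80, SE 0.195, adjusted p = 0.0046 in OH). Without C intestine array 2 the call in C was lost (log2 0.46, adjusted p = 0.065). Eif3c was lower in stomach in both treatments (log2 -0.48 and -0.49), Eif3f higher in C alone (log2 0.47) and Eif3m higher in OH alone (log2 0.30).

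Eif6, which keeps the large ribosomal subunit from joining too early, was lower in stomach in both treatments, with a narrow gap between the tissues in C. It was 0.06, -0.60, -0.17 and -0.21 in C stomach and 0.39, 0.14, 0.11 and 0.08 in C middle intestine (log2 -0.41, SE 0.146, adjusted p = 0.0339). In OH it was -0.60, -0.56, -0.42 and -0.64 against 0.56, 0.18, -0.01 and 0.15 (log2 -0.77, SE 0.146, adjusted p = 0.000761). The call in C was lost without C stomach array 2, 3 or 4 or C intestine array 1 or 2 (adjusted p 0.0517 to 0.111). Eif5a, the hypusine-bearing factor, differed by -0.05 and -0.06. Its dim paralog Eif5a2, well above background on 14 of 16 arrays, lay between -1.42 and -1.16 in C stomach, spread over -1.36 to 0.26 in OH stomach, and passed in no comparison.

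The C stomach arrays that carried striated muscle signal mattered to the count. Without C stomach arrays 1, 3 and 4 the comparison in C gave 9 calls in place of 24 (20.9% of all probes in place of 44.9%), from 1 stomach array whose spread was taken from the other groups. All 24 kept their direction, Eif2ak4 stayed called, and Eef2 gave log2 0.50 (adjusted p = 0.188). Which part of the lower count came from muscle and which from fewer arrays was not tested. In the fits that left out 1 array of the 16 in turn, 15 of the 24 calls in C and 16 of the 18 in OH were never lost. Beside the calls given above, Eif3f was lost without C intestine array 2, Eif5 without C stomach array 4 or C intestine array 1, and Eif1ad without C stomach array 1, 3 or 4 or C intestine array 1 or 2. Eif4e was lost without any of C stomach arrays 1, 3 and 4, C intestine arrays 1 to 3 and OH stomach arrays 2 and 4. Eif2b2 was lost without any 1 of the C stomach arrays, of C intestine arrays 1, 3 and 4, of OH stomach arrays 2 to 4 or of OH intestine array 4. In OH, Eif3m was lost without OH stomach array 1, 2 or 4 or OH intestine array 1, 2 or 3.

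The second comparison asked which factors changed with obestatin within a tissue. In stomach 0 of the 60 factors passed in limma, as did 0% of all probes, and the smallest adjusted p was 0.318. At an unadjusted p under 0.05 there were 6 factors (10.6% of all probes), and with ANOVA and Tukey's HSD there were 3, Eef1a1, Eif3k and Eif5 (3.35% of all probes). In the middle intestine 0 factors passed, where 0.368% of all probes did (0.335% higher and 0.0331% lower in OH), with a smallest adjusted p of 0.162. Unadjusted there were 7 (10.5% of all probes), and with ANOVA and Tukey's HSD 4, Eef1a1, Eif2b2, Eif3k and Eif5b (4.42% of all probes). The difference of the obestatin effect between the tissues passed for 0 factors (0% of all probes) and had an unadjusted p under 0.05 for 2, Eif1b and Eef1e1 (5.85% of all probes). The median effect was -0.03 in stomach and -0.05 in the intestine, beside 0.01 and 0.00 over all probes.

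The arrays of OH and C did not overlap for 6 factors in stomach (10.0%, beside 7.6% of all probes) and for 5 in the middle intestine (8.33%, beside 5.86%). Of these, 2 were apart in both tissues in the same direction (beside 0.789% of all probes): Eef1a1, higher in OH, and Eif3k, an eIF3 subunit, lower. Eef1a1 was 0.00, 0.01, 0.04 and 0.08 in C stomach and 0.46, 0.14, 0.17 and 0.35 in OH stomach. In the intestine it was -0.03, 0.00, -0.14 and 0.06 in C and 0.29, 0.20, 0.25 and 0.29 in OH. Every OH array lay above every C array of its tissue, by 0.25 in stomach (SE 0.0908, adjusted p = 0.393) and 0.28 in the intestine (SE 0.0908, adjusted p = 0.220). Eif3k was lower by log2 -0.20 in stomach (adjusted p = 0.448) and -0.19 in the intestine (adjusted p = 0.445). A second probe of Eif3k gave smaller changes in limma, -0.07 in stomach (adjusted p = 0.826) and -0.03 in the intestine (adjusted p = 0.971).

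The 5 factors with the smallest p in stomach were Eif4e3, Eef1a1, Eif3k, Eif5 and Eif5a2, with log2 values of 0.82, 0.25, -0.20, 0.21 and 0.81. In the middle intestine they were Eif5b, Eef1a1, Eef1e1, Eif4e3 and Eif3k, with 0.68, 0.28, -0.47, 0.63 and -0.19. None of these passed after adjustment. The second probe of Eif4e3 gave 0.21 in stomach and, with the opposite sign to the first, -0.18 in the intestine. That of Eif5 gave 0.04 in stomach. The mean of 8 smooth muscle genes was 0.96, -1.32, -2.59 and 0.16 on the OH stomach arrays and -2.57 to -1.38 on the C stomach arrays, and its part in the stomach values, like that of striated muscle, was not tested. Eif5b is the GTPase that joins the ribosomal subunits, and Eif4e3 is a divergent cap-binding relative of Eif4e.

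Since every array carried the Cy3 pool, both channels were also compared alone, each relative to its array's 75th percentile. In Cy5, which holds the tissue, 0 of the 60 factors differed between OH and C in stomach (0.118% of all probes) and 0 in the intestine (3.07%). In Cy3, which holds the pool, 35 of 60 differed in stomach (43.8% of all probes) and 35 in the intestine (60.9%). Without scaling, the Cy3 counts were 48 and 12 (62.3% and 30.6% of all probes), and relative to the array median 23 and 25 (41% and 58.6%). The Cy3 change was larger in size than the Cy5 change for 28 of 60 factors in stomach and for 37 in the intestine.

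**Figure D4:**
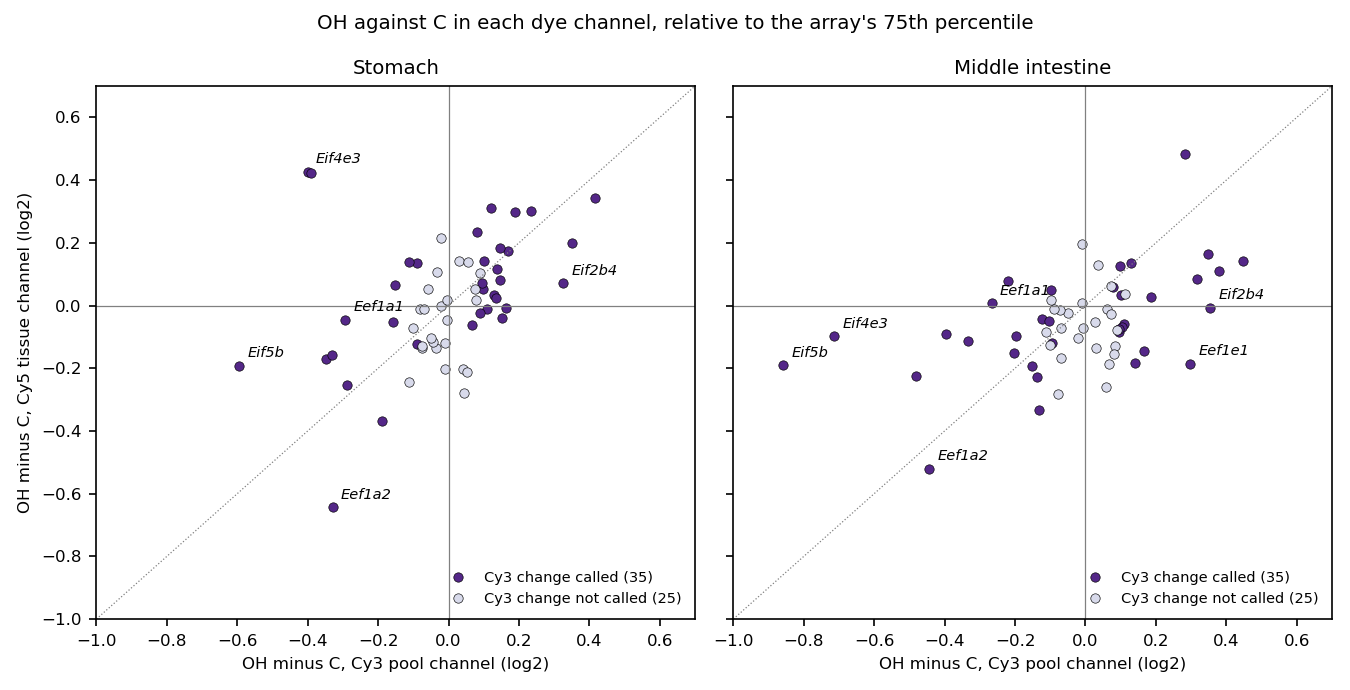
Change from C to OH in the Cy3 pool channel (x axis) and the Cy5 tissue channel (y axis) for the 60 factors in stomach (left) and middle intestine (right), log2 relative to each array's 75th percentile; the dotted line marks equal change in both, where the ratio stays the same. In each tissue 35 factors passed in Cy3 and 0 in Cy5, and Eif5b lies far to the left (-0.60 and -0.86 in Cy3).

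Eif5b shows it array by array. Its Cy3 signal was -2.07, -2.06, -2.02 and -2.06 in C stomach and -2.64, -2.67, -2.68 and -2.60 in OH stomach, and -1.84, -1.85, -1.93 and -1.83 and -2.75, -2.72, -2.67 and -2.74 in the intestine. Its Cy5 signal ran from -2.14 to -1.60 and from -2.57 to -1.96 in stomach, and from -2.54 to -1.89 and from -2.52 to -1.80 in the intestine. The pool channel separated OH from C without overlap, with little spread within a group, and the tissue channel overlapped. In the intestine the Cy3 change was -0.86 (adjusted p = 3.55e-11) and the Cy5 change -0.19 (adjusted p = 0.804), beside the ratio's 0.68.

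For Eef1a1 and Eef1e1 too the channel that passed was Cy3. For Eef1a1 the Cy3 change was -0.29 in stomach (adjusted p = 0.000782) and -0.27 in the intestine (adjusted p = 0.000865), while the Cy5 change was -0.05 and 0.01. For Eef1e1 in the intestine it was 0.30 in Cy3 (adjusted p = 9.72e-07) and -0.19 in Cy5 (adjusted p = 0.714). Eif3k differed from them, with a Cy5 change of -0.20 and -0.28 and a Cy3 change of -0.01 and -0.08, and passed in neither channel. Eif4e3, with the smallest p in stomach, changed there by -0.40 in Cy3 and by 0.43 in Cy5. Eif5a2 changed in stomach by 0.42 in Cy5, and neither Cy5 change passed. In the intestine the Cy3 change of Eif4e3 was -0.71. For Eef1a2 in stomach the Cy5 change was -0.64 (adjusted p = 0.154) and the Cy3 change -0.33 (adjusted p = 0.00399), and the ratio changed by -0.32 (adjusted p = 0.528).

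**Figure D5:**
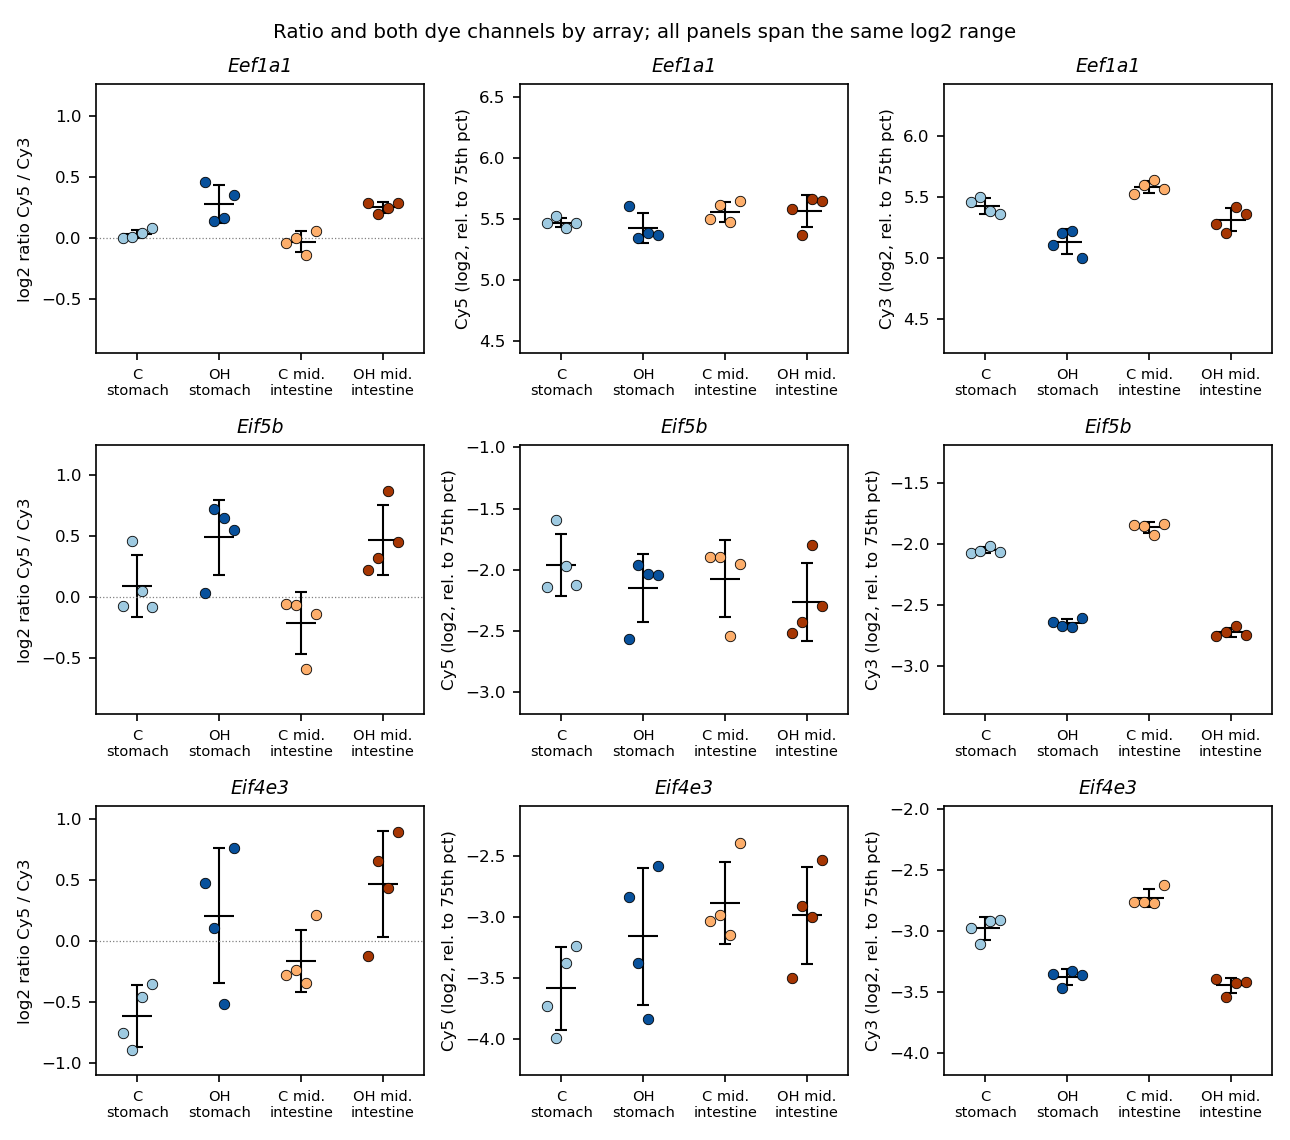
Log2 ratio (left), Cy5 tissue signal (middle) and Cy3 pool signal (right) on each array for Eef1a1, Eif5b and Eif4e3, the channels relative to the array's 75th percentile; points are arrays, bars and whiskers the mean and SD of 4 arrays. In the right column the OH arrays of each gene lie below the C arrays of the same tissue (Eif5b: -2.68 to -2.60 against -2.07 to -2.02 in stomach), while in the middle column they overlap.

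The tissue comparisons lie within 1 scan day each and rested on the Cy5 channel for more of the factors. All 24 calls in C and all 18 in OH kept their sign in Cy5 alone, where 20 and 17 of them passed. The ratio holds Cy5, so calls made on the ratio tend to keep their sign there. In Cy3 alone 9 and 7 of these calls passed, counted in either direction. In Cy5 alone 22 factors passed in C (43.2% of all probes) and 23 in OH (39.1%), and in Cy3 alone 24 (34.3%) and 15 (14.3%). In size, the Cy3 change was larger than the Cy5 change for 12 and 8 of the 60 factors. For Eif2ak4 the Cy5 change was 1.31 and 1.28 and the Cy3 change 0.07 and 0.12. Tissue and slide still cannot be told apart within a treatment.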

How the data were processed

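RNA of rat stomach and middle intestine (4 arrays per tissue and treatment) was hybridized as Cy5 with a common Cy3 pool on 2-colour Agilent arrays whose design is mapped to rn4. The authors deposited, per array, spot intensities that Agilent Feature Extraction (10.10.1.1 in the file headers, 10.7.3.1 in the labels) had background-subtracted, detrended and Lowess dye-normalized, and log10 ratios of Cy5 to Cy3. The deposited log10 table held the same ratios, rounded for 1 array. From the processed intensities, log2 ratios were taken, control spots and outlier spots left out and spots of a probe averaged. Of 30367 probes, 9193 dim ones were left out and 21174 tested with limma 3.58.1 in R 4.3.3 over all 16 arrays, with Benjamini-Hochberg adjustment and a threshold of 0.05. Of the tested probes, 43 lacked a value on at least 1 array. Differences are stomach minus intestine, or OH minus C, on the log2 scale.

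Groups were taken from the labels. The study's methods give each array to a specific rat and sample 4 rats per group for both tissues, so the tissues may share rats. The labels do not say. An exact permutation test of 4 against 4 cannot go below p = 0.0286, two-sided. The number of arrays limits the precision. The members and lists were chosen with earlier results of these data known. Genes named by rule were fixed core factors (the eEF1A isoforms, eEF1B, eEF2 and its kinase, eIF4E and its binding proteins, the eIF2α kinases, eIF2, eIF4A, eIF5A and eIF6), the 10 largest changes in each direction among factors called in both tissue comparisons, and the 5 with the smallest p for OH against C per tissue, and, of the pathway list, the 3 largest in each direction in C. Eif1, Eif1l1, Eif1ax, Eif1ad, Eif2b2, Eif2s2, Eif3c, Eif3f, Eif3h, Eif3i, Eif3j and Eif3m were named after their values were seen. The main fit did not take replicate numbers as pairs, and the correlations behind this choice are given below. Alternatives covered background correction, scaling, single channels, filters, array weights, the replicate block, ANOVA with Tukey's HSD, the probe rule and arrays left out. Gene names are those of the array design: 60 matched RefSeq (GRCr8) by symbol and 1 by synonym, and start-site sequences are RefSeq's.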

Additional observations from a re-analysis of the deposited data

Results flagged for a closer look

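For 16 of the 240 sets of 4 arrays (60 factors in 4 groups), 1 array stood apart from the other 3, judged by its gap to the nearest as a share of the whole range. Chance gives about 1 in 20 sets, or 12 of 240. Eef1a2 was 0.82 on C middle intestine array 2 and 0.46 to 0.51 on the others (gap share 0.842). Eef1g was -0.26 on C middle intestine array 3 and -0.04 to -0.01 on the others (gap share 0.878). Eef2 was -0.02 on C middle intestine array 4 and -0.54 to -0.50 on the others (gap share 0.919). Eif2ak3 was 0.15 on C middle intestine array 4 and 0.57 to 0.60 on the others (gap share 0.921). Eif5b was -0.59 on C middle intestine array 3 and -0.13 to -0.06 on the others (gap share 0.853). Eef1b2 was 0.79 on OH middle intestine array 3 and 0.51 to 0.54 on the others (gap share 0.907). Eif4e was 0.83 on OH middle intestine array 3 and 0.42 to 0.43 on the others (gap share 0.968). Eif1a was 0.48 on C stomach array 2 and 0.27 to 0.30 on the others (gap share 0.872). Eif2ak3 was 1.58 on C stomach array 2 and 1.02 to 1.07 on the others (gap share 0.904). Eif2b5 was 0.58 on C stomach array 2 and 0.27 to 0.30 on the others (gap share 0.911). Eif2s1 was 0.05 on C stomach array 4 and -0.08 to -0.06 on the others (gap share 0.89). Eif3c was -0.46 on C stomach array 3 and -0.32 to -0.29 on the others (gap share 0.835). Eif2s3x was 0.19 on OH stomach array 2 and -0.37 to -0.28 on the others (gap share 0.84). Eif3g was 0.04 on OH stomach array 1 and 0.32 to 0.37 on the others (gap share 0.83). Eif4a2 was 0.99 on OH stomach array 1 and 0.39 to 0.43 on the others (gap share 0.937). Eif4ebp2 was -0.48 on OH stomach array 1 and 0.01 to 0.11 on the others (gap share 0.839). 

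C stomach array 2, which held 3 of these values, is the array low in striated muscle genes, and OH stomach array 1 held 3 as well. No explanation of these values was tested.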

How the results depend on the processing

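The counts of factors called between tissues stayed within 1.5 times of 24 (C) and 18 (OH) under every alternative but 1: without the 3 C stomach arrays high in striated muscle genes, 9 were called in C (2 higher, 7 lower). Leaving out 1 array at a time gave 18 to 25 calls in C, 17 to 21 in OH and 0 for both obestatin effects and their difference. For OH against C in stomach, 0 calls became 6 with Cy5 not scaled (all higher; 6.93% of all probes, whose median moved by 0.32), 3 with array weights (5.37%), 3 with ANOVA and Tukey's HSD (3.35%) and 6 without adjustment (10.6%). In the middle intestine 0 became 1 with scale normalization between arrays (Eef1e1, -0.69; 1.27% of all probes), 4 with ANOVA and Tukey's HSD (4.42%) and 7 without adjustment (10.5%), and for the difference between tissues 2 without adjustment. The cause was not tested. The replicate number as a block gave 23 calls in C, 20 in OH and 0 elsewhere. It ended the calls of Eif1ad, Eif4a1 and Eif2b2 in C. Deviations of same-numbered stomach and intestine arrays correlated by 0.0577 to 0.246 in C, where 3 of 4 matched their own number best (other numbers -0.160 to 0.0759), and by -0.123 to 0.322 in OH, where 2 did. With a pair under 0.1 in each, the numbers were not taken as pairs, but whether both tissues came from the same rats is not settled by the labels. Over the 42 calls and 17 settings, 0 of 714 values changed direction. The settings reuse the arrays on which the calls were picked, so a reversal was unlikely from the start. With Cy5 not scaled, 12 of the 42 calls were lost. The difference between tissues has no value under ANOVA and Tukey's HSD or with only the arrays of a comparison. Dim signals limit Eif5a2 and Eif4e1b.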

Other observations

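A list of genes that act beside the translation factors covered mTOR signalling, eIF4E kinases, hypusine synthesis, release factors and poly(A)-binding partners. Of its 38 measured genes, 16 differed in C (9 higher and 7 lower in stomach, 42.1%) and 10 in OH (3 higher, 7 lower, 26.3%), beside 44.9% and 38.2% of all probes in limma. Akt2, a kinase of insulin signalling, was higher in stomach by log2 1.72 in C (adjusted p = 2.82e-05) and 1.65 in OH (adjusted p = 4.65e-05). Rictor, the defining subunit of mTORC2, was higher by 1.07 (adjusted p = 0.000511) and 0.56 (adjusted p = 0.0354). Mknk2, a kinase of eIF4E, was higher in C (log2 0.72, adjusted p = 0.000155), with 0.29 in OH (adjusted p = 0.0592). Dohh, the last enzyme of hypusine synthesis on Eif5a, was lower in stomach in C (log2 -0.75, adjusted p = 0.000169). The release factor Etf1 (log2 -0.56 in C, -0.52 in OH) and the poly(A)-binding partner Paip1 (-0.54 and -0.57) were lower too. With obestatin 0 of the 38 passed in limma in either tissue, beside 0% of all probes in stomach and 0.368% in the intestine. At an unadjusted p under 0.05 there were 1 in stomach (10.6% of all probes) and 4 in the intestine (10.5%).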
